A study of Mus musculus with 12 samples.

Results

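Blood clotting, complement and several plasma carrier proteins are made by hepatocytes, and the promoters of 38 of their genes are described here by how open their chromatin was. A gene was a member if its symbol was on a list of coagulation factors, fibrinogen chains, fibrinolysis and anticoagulant proteins, contact proteins, plasma carriers, inter-alpha-trypsin inhibitor chains and complement proteins. Complement C3 and the serpin inhibitors were not on that list. Each gene was represented by the promoter with the highest mean CPM (counts scaled to library size) over all libraries. The 38 members had 66 of the 43511 promoter rows and were 38 of the 25124 gene symbols in the table. All 38 passed the filter on low counts. Of all symbols, 24602 did.

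Chromatin was profiled by ATAC-seq, in which the Tn5 transposase cuts DNA that is not packed by nucleosomes, so that a high count at a promoter marks open chromatin. The livers came from male wild-type C57BL/6N mice of 19 to 20 weeks on a standard chow. By oral gavage over 4 days the control mice received distilled water, the atorvastatin mice 10 mg/kg of this cholesterol-lowering statin, and the PCN mice 100 mg/kg of pregnenolone 16α-carbonitrile, which activates the pregnane X receptor (PXR), a nuclear receptor of drug metabolism. Every group was fasted for 12 hours before the end, and each has 4 libraries. Whether each library was made from a different mouse is not stated in the labels, so p-values here measure only the spread between these libraries. In bulk liver, fewer hepatocytes and less open chromatin per hepatocyte cannot be told apart.

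Coagulation is a chain of serine proteases and cofactors that ends with thrombin turning soluble fibrinogen into fibrin, while protein C, protein S and plasminogen limit or dissolve the clot. Complement is a parallel protease chain that is started by antibodies, by mannose-binding lectins or spontaneously through factor B, and that ends in a membrane attack complex. Hepatocytes secrete most of these proteins, and factors of the HNF1, HNF4, C/EBP and FOXA families are known to act at many of their promoters.

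The sequences just before the annotated starts show how unlike these promoters are. RefSeq sequences (GRCm38.p6, the same primary assembly as the mm10 build of the files) were found for 31 of the 38 members, and the other 7, Plg, Proc, Kng1, C4b, Cfb, Cfi and Masp1, are named only. The 140 bases before the start, 5′ to 3′ on the gene's strand, are shown for the 3 fibrinogen genes, which lie side by side on chromosome 3, and for 3 members that the comparisons below turn on. Capitals mark matches, on either strand, to the HNF1 core GTTAAT, the C/EBP motif TTNNGCAA, the FOXA motif TGTTTAC or the HNF4 motif.
Fga, chr3:83026013-83026152, plus strand: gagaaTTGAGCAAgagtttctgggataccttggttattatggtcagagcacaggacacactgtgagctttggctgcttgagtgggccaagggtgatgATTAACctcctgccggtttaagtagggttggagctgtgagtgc
Fgb, chr3:83049864-83050003, minus strand: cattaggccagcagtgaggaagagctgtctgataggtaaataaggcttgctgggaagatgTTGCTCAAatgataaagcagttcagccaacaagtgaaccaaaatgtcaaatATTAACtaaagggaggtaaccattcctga
Fgg, chr3:83007584-83007723, plus strand: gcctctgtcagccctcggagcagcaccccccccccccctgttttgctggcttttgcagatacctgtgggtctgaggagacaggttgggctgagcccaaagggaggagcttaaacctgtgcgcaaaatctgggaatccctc
Hrg, chr16:22950932-22951071, plus strand: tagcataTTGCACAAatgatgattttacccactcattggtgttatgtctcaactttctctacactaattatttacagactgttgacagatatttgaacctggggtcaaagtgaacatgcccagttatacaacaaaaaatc
Ahsg, chr16:22891875-22892014, plus strand: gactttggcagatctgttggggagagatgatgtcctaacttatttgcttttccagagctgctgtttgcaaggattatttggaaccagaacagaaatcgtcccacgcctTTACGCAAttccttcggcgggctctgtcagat
Pros1, chr16:62854167-62854306, plus strand: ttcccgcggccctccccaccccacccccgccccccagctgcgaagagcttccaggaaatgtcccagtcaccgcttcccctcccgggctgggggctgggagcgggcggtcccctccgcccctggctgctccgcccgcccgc
Fga and Fgb each hold the HNF1 core and the C/EBP motif in this stretch, whereas none of the marked motifs was found in those of Fgg and Pros1.

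Over the 250 bases before the start, searched on both strands, the HNF1 core GTTAAT was found in 9 of the 31 members (29.0%): F13b, Fga, Fgb, Vtn, Itih1, C4bp, Hc, C8a and C8b. Among all 27025 genes of the sequence table, 7.49% hold it in the same window. The C/EBP motif was found in 8 of 31 (25.8%, against 10.8% of all genes), the STAT motif TTCNNNGAA in 6 (19.4%, against 8.13%) and the FOXA motif in 3 (9.68%, against 3.54%). A TATA box, TATAAA on the gene strand, was found in 3 of 31 (9.68%, against 8.94%). No member held the HNF4 motif, the full palindromic HNF1 motif or the direct-repeat motif of the pregnane X receptor in this window. Among all genes of the sequence table, 0.451%, 0.0111% and 0% held them. With shares so low, their absence from the members says only that those letters are not there. GC content was 49.2% in the median member and 52.4% in the median gene of the table, and the median number of CpG dinucleotides was 3 against 6. These are descriptions of sequence and not binding sites. The extremes were Pros1, with 64.4% GC and 15 CpG, and F13b, with 30.8% GC.

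Promoter counts summed to between 1679054 and 15336000.5 per library, and control 3 and atorvastatin 3 stood apart from the rest. Across promoters their median correlations with the other libraries were 0.735 and 0.759, against 0.925 to 0.971 for the other 10. In control 3, 646 of 25622 otherwise open promoters (2.52%) held under 2 CPM, while the share was at most 0.729% in any other library. Fgb held 0 counts there, which allows up to 1.20 CPM by counting error alone. Control 3 was the lowest of the 12 libraries at 19 of the 38 member promoters, so the main results are also given without control 3 and atorvastatin 3, the 2 low-correlation libraries, a choice made after the data were seen. CPM values were scaled by the TMM method (trimmed mean of M-values).

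In control liver the members spanned a modest range of openness. Mean CPM was highest for F10, the gene of coagulation factor X, which activates prothrombin. It held 45.1, 71.3, 63.4 and 93.9 CPM in control 1 to 4, a mean of 68.4 ± 20.2 (SD, n = 4). Plg, which encodes the fibrin-dissolving protease plasminogen, held 34.0, 51.3, 51.4 and 79.2 CPM, and Itih1, a heavy chain of the inter-alpha-trypsin inhibitors, 39.2, 44.8, 41.1 and 71.6 CPM. In all 3 genes control 4 was the highest control library and control 1 the lowest. The lowest means were those of Hc, the gene of complement C5, Cpb2, a carboxypeptidase that slows fibrinolysis, and C4bp, an inhibitor of the classical pathway. Hc held 9.44, 12.97, 7.58 and 15.1 CPM, a mean of 11.3 ± 3.39 (SD, n = 4). Cpb2 held 10.4, 15.5, 10.8 and 8.80 CPM, and C4bp 13.6, 14.4, 3.99 and 14.5. The deposited table gives counts per promoter window with no window length, so an order between genes holds per window only. When the 38 genes were ordered by control mean, every neighbouring pair overlapped in its 4 libraries. The 3 fibrinogen genes, whose products are assembled in equal numbers, were at 36.3 ± 14.7 (Fga), 17.2 ± 12.9 (Fgb) and 30.7 ± 9.85 CPM (Fgg) (SD, n = 4 each), also overlapping.

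**Figure D1:**
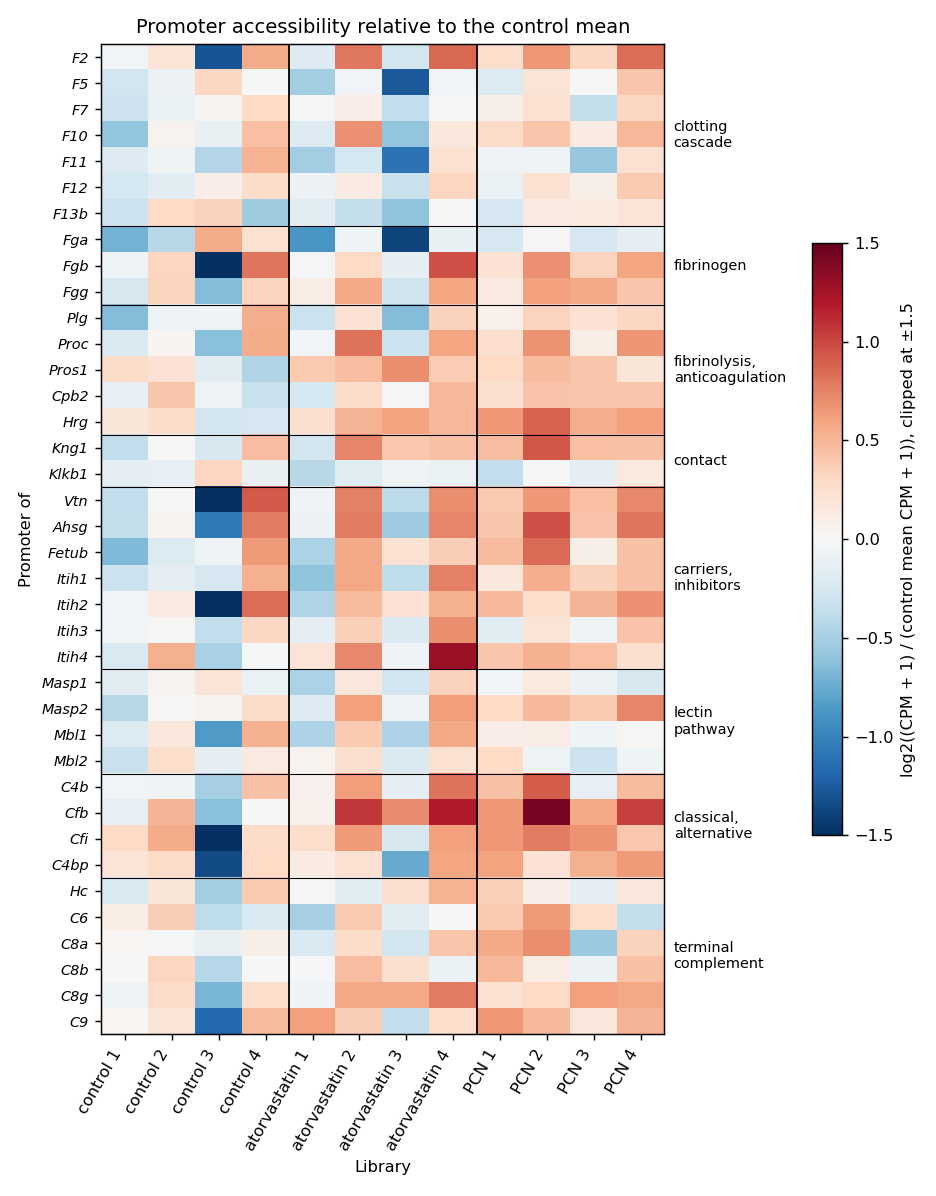
Heat map of the 38 member promoters (rows, by role) in the 12 libraries (columns). Colour is log2 of CPM over the mean CPM of the 4 controls, with a small constant added to both and extreme values clipped. Control 3 is the lowest of the 12 columns in 19 rows, and the 4 PCN columns lie mostly above 0.

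The heat map of all members shows that libraries of one group differed as a block. The deviations given here are log2 CPM minus the mean log2 CPM of the controls, which differs slightly from the colour scale. The median member lay 0.36 below the control mean in control 3 (a log2 deviation of -0.36) and 0.37 above it in control 4. With atorvastatin the medians were -0.03, 0.51, -0.17 and 0.54 in libraries 1 to 4. With PCN they were 0.34, 0.52, 0.29 and 0.49, all above 0. Summed over the 38 genes, promoter CPM was 836 to 1411 in the controls, 963 to 1602 with atorvastatin and 1276 to 1587 with PCN, ranges that overlap between all 3 groups. The spread within PCN was narrower: the median SD of log2 CPM over members was 0.22, against 0.44 for control and 0.44 for atorvastatin, and 0.34 for control without replicate 3.

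The comparison of PCN with control asked whether a pregnane X receptor agonist changed the opening of these promoters. No member passed the test, and most lay slightly higher with PCN. The largest differences were at Cfb, encoding complement factor B, at Hrg, encoding histidine-rich glycoprotein, a plasma protein that binds plasminogen and heparin, at Ahsg, encoding fetuin-A, an inhibitor of mineral deposition, and at Kng1, encoding kininogen. Of the 38 members, 33 had a log2 fold change above 0, against 51% of all 41908 promoters tested. The median member was at 0.39 and the median promoter at 0.01. Without control 3 and atorvastatin 3 the member median was 0.28, with 35 of 38 above 0, and 0.19 when loess offsets, a scaling that follows abundance, were added. Promoters in the range of mean CPM of the members (11.8 to 76.1) had a median of 0.14 and 70.8% above 0, and 0.12 and 71.6% without both libraries.

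By edgeR's quasi-likelihood test (Benjamini-Hochberg adjusted) over all promoters, 0 of 38 members passed at 0.05 for PCN against control, as did 0% of all promoters, and the lowest adjusted p of a member was 0.918. DESeq2 and limma-voom also called 0 members. At an unadjusted p under 0.05 by edgeR, 4 members lay higher (Hrg, Kng1, Ahsg and Cfb; 1.87% of all promoters) and 0 lower (1.88%). The PCN and control libraries did not overlap, with PCN higher, at 3 members, Hrg, Masp2 and Cfb (2.07% of all promoters), and with PCN lower at 0 (1.52%). The same 3 were apart without control 3 (3.23% of all promoters). Without both low-correlation libraries, 5 members had an unadjusted p under 0.05 on the higher side, Hrg, Kng1, Fetub, Masp2 and Cfb (2.93% of all promoters), and 0 on the lower (1.58%).

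**Figure D2:**
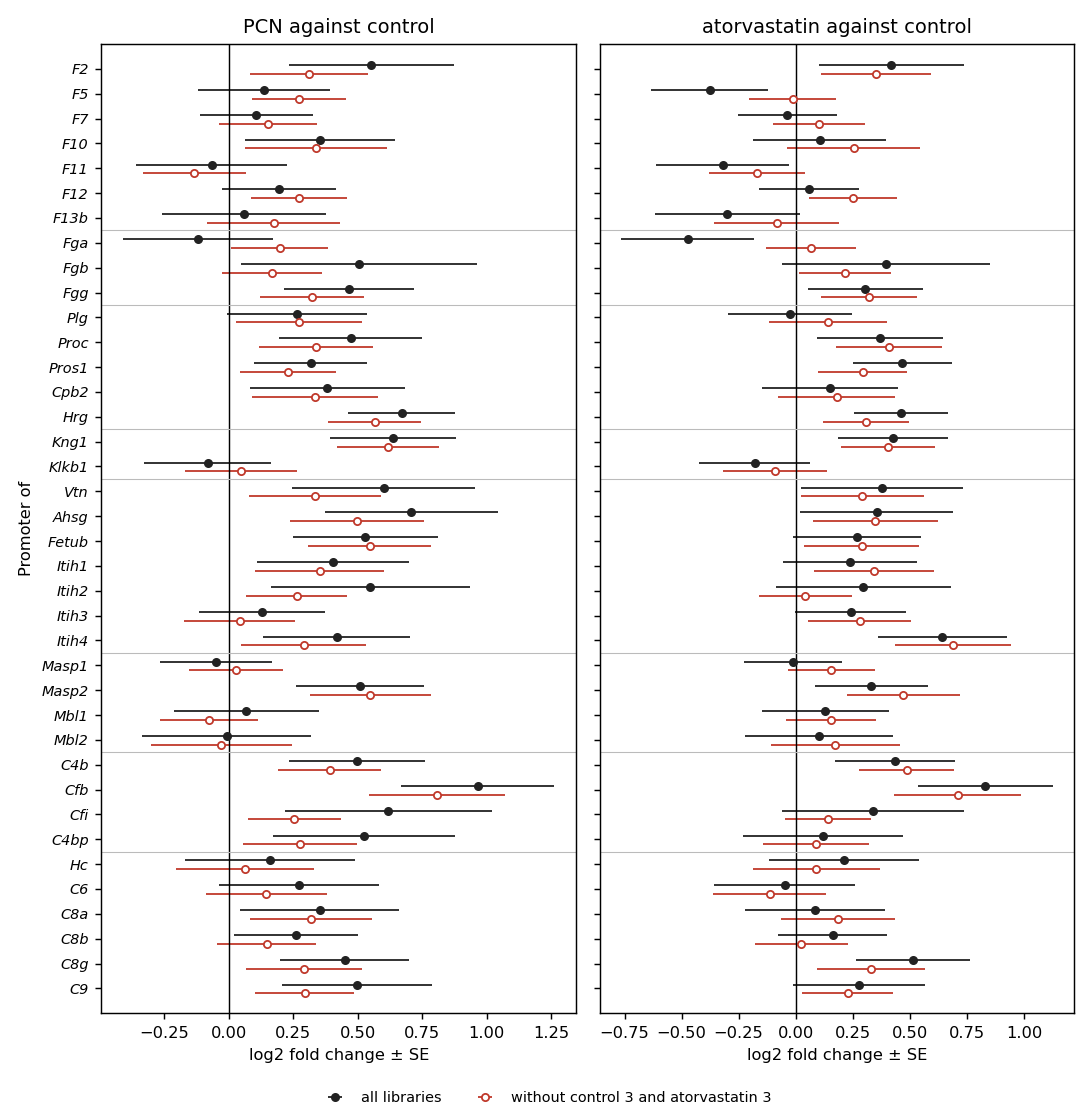
Log2 fold changes of the 38 member promoters (points) with SE (bars), by role, for each drug against control. Filled points are from all libraries, open points from the fit without control 3 and atorvastatin 3. In PCN against control 33 filled points lie right of 0, with Cfb at 0.97 and Hrg at 0.67, and the filled point of Fga lies furthest left at -0.12.

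Of the 7 clotting cascade genes, 6 lay above 0 with PCN, with a median log2 fold change of 0.14. The median was 0.27 without both low-correlation libraries. F2, the gene of prothrombin, was highest at 0.55 ± 0.32 (SE), but at 0.31 without both low-correlation libraries, and F11, of contact-activated factor XI, lowest at -0.07 ± 0.29. F10 held 84.0, 91.7, 74.4 and 97.3 CPM with PCN, within or just above the control range, and its log2 fold change was 0.36 ± 0.29. F11 held 17.6, 19.4, 14.8 and 29.5 CPM in the controls and 19.6, 19.3, 13.4 and 24.0 with PCN, a full overlap. Its sign depended on single libraries: it was 0.13 without control 4 and 0.07 without PCN 3. F5, F7, F12 and F13b lay between 0.06 and 0.20. They encode the cofactor factor V, the tissue-factor partner factor VII, contact factor XII and a subunit of the fibrin-crosslinking factor XIII.

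The 3 fibrinogen chain genes did not share a direction. Fgb lay at 0.51 ± 0.46 and Fgg at 0.47 ± 0.25 above control, while Fga was at -0.12 ± 0.29 (log2 fold change ± SE). Fga held 21.8, 27.0, 53.8 and 42.7 CPM in the controls, with control 3 the highest, and 30.3, 36.9, 30.5 and 32.9 with PCN. Fgb held 16.5, 21.7, 0 and 30.8 CPM in the controls, with control 3 at no counts, and 20.2, 28.3, 22.0 and 26.5 with PCN. Fgg held 25.8, 38.7, 19.1 and 39.0 CPM in the controls and 33.8, 47.5, 46.1 and 41.3 with PCN. In every one of these 3 genes the groups overlapped, and control 3 was at an extreme of the controls, high in Fga and low in Fgb and Fgg. Without control 3 and atorvastatin 3 the 3 genes lay close together, at 0.20 for Fga, 0.17 for Fgb and 0.32 for Fgg. Fga alone changed sign: it was 0.16 without control 3 only and 0.08 by limma-voom.

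All 5 genes of fibrinolysis and anticoagulation lay above 0 with PCN, with a median of 0.38, and 0.34 without both low-correlation libraries. Hrg held 22.4, 24.0, 15.9 and 16.3 CPM in the controls and 31.5, 37.2, 29.2 and 30.6 with PCN. Each PCN library was above each control, and the log2 fold change was 0.67 ± 0.21 (SE; edgeR unadjusted p = 0.0035, adjusted p = 0.918). It was 0.57 without control 3 and atorvastatin 3. Cpb2 held 13.7, 15.6, 15.5 and 15.5 CPM with PCN, at or above all but control 2, and lay at 0.38 ± 0.30. Plg held 57.2, 68.4, 62.7 and 67.5 CPM with PCN, inside the control range, and lay at 0.27 ± 0.27. Proc, of the anticoagulant protease protein C, was at 0.47 ± 0.28, and its cofactor gene Pros1, of protein S, at 0.32 ± 0.22.

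The 2 contact system genes parted. Kng1 encodes kininogen, the precursor of the vasodilator bradykinin. It held 19.6, 25.6, 21.5 and 35.8 CPM in the controls and 35.9, 49.8, 35.5 and 35.2 with PCN. Control 4 reached the lower PCN libraries, so the groups overlapped, at a log2 fold change of 0.64 ± 0.24 (SE; edgeR unadjusted p = 0.015, adjusted p = 0.918). Klkb1 encodes prekallikrein, the protease that releases bradykinin, and it held 15.8, 16.1, 22.3 and 16.3 CPM in the controls and 13.4, 17.7, 15.8 and 19.7 with PCN. Its log2 fold change of -0.08 ± 0.25 became 0.04 without control 3, its highest control library, 0.01 without PCN 1 and 0.05 without both low-correlation libraries.

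**Figure D3:**
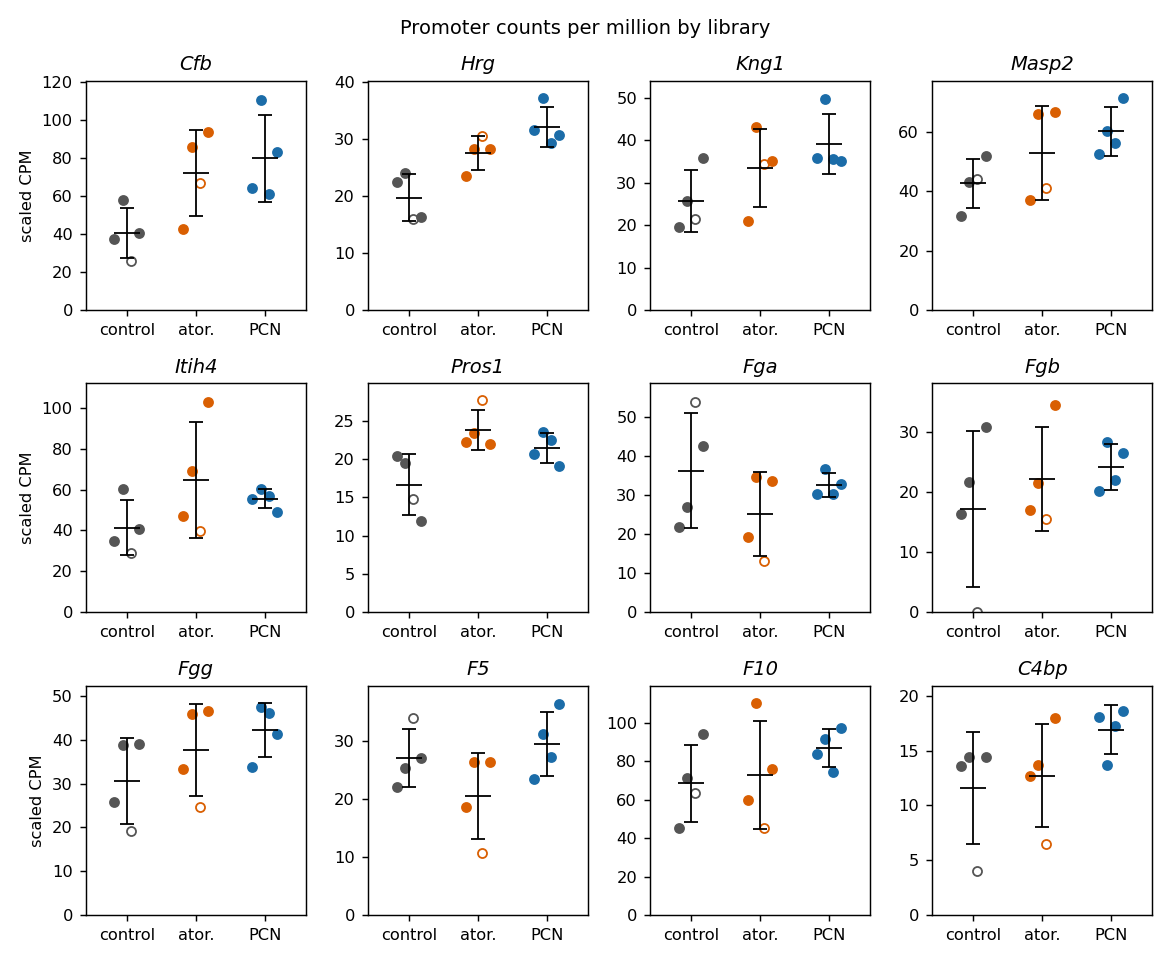
Promoter CPM by library (points, vertical axes from 0) for 12 of the members named in the text, with the mean ± SD of each group (bars) and control 3 and atorvastatin 3 as open circles. The PCN points of Cfb, Hrg and Masp2 all lie above the control points, and the open circle of control 3 sits at 0 for Fgb.

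The 7 plasma carriers and inhibitors all lay above 0 with PCN, with a median of 0.53, and 0.33 without both low-correlation libraries. Ahsg held 35.8, 48.1, 21.5 and 79.2 CPM in the controls and 61.8, 91.3, 62.5 and 81.0 with PCN. Control 4 lay among the PCN libraries and the other controls below them, at a log2 fold change of 0.71 ± 0.34 (SE; edgeR unadjusted p = 0.046, adjusted p = 0.918), and 0.50 without both low-correlation libraries. Vtn, of the adhesion protein vitronectin, was at 0.60 ± 0.36, but 0.33 without both, and Fetub, of the protease inhibitor fetuin-B, at 0.53 ± 0.28. Itih2 was at 0.55 ± 0.39, but at 0.26 without both libraries, since control 3 held 1.59 CPM against 16.5 to 31.1 in the other controls. Among the other inter-alpha-trypsin inhibitor chains, Itih1 lay at 0.40 ± 0.29, Itih4 at 0.42 ± 0.28 and Itih3 at 0.13 ± 0.24. Itih1 held 54.9, 72.2, 62.7 and 67.0 CPM with PCN, above 3 of the 4 controls.

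Among the complement roles, the 4 genes of the classical and alternative pathways had the highest median log2 fold change with PCN, 0.57. The 4 of the lectin pathway had the lowest, 0.03. Without both low-correlation libraries these medians were 0.33 and 0.0005. All 4 classical and alternative pathway genes lay above 0. Cfb held 37.2, 58.2, 25.9 and 40.8 CPM in the controls and 64.3, 110.8, 61.0 and 83.6 with PCN, all 4 above the highest control. This was the largest difference of any member, at 0.97 ± 0.30 (SE), a 1.95-fold difference in CPM (edgeR unadjusted p = 0.0034, adjusted p = 0.918), and 0.81 without both low-correlation libraries. C4b, encoding the C4 protein of the classical pathway, was at 0.50 ± 0.27. It has a near-identical copy, C4a, between which reads could have been split, so its value is uncertain. Cfi, of the C3b-cleaving factor I, was at 0.62 ± 0.40 and C4bp at 0.52 ± 0.35. Both were lower without the low-correlation libraries, at 0.25 and 0.28, as control 3 held 0.797 CPM of Cfi and 3.99 of C4bp. C4bp held 18.1, 13.7, 17.3 and 18.6 CPM with PCN, of which PCN 2 lay within the controls.

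In the lectin pathway, Masp2, the protease that cleaves C4 and C2, lay furthest from 0. It held 31.7, 43.3, 44.3 and 51.8 CPM in the controls and 52.7, 60.3, 56.4 and 71.6 with PCN, with no overlap, at 0.51 ± 0.25 (SE; edgeR unadjusted p = 0.051, adjusted p = 0.918). The lectins Mbl1 and Mbl2 lay at 0.07 and -0.01, and the protease gene Masp1 at -0.05. All 6 terminal complement genes lay above 0, between 0.16 for Hc and 0.50 for C9, with a median of 0.31, and 0.22 without both low-correlation libraries. Hc held 14.7, 12.1, 10.2 and 12.8 CPM with PCN, within the control range. No terminal gene had groups apart.

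**Figure D4:**
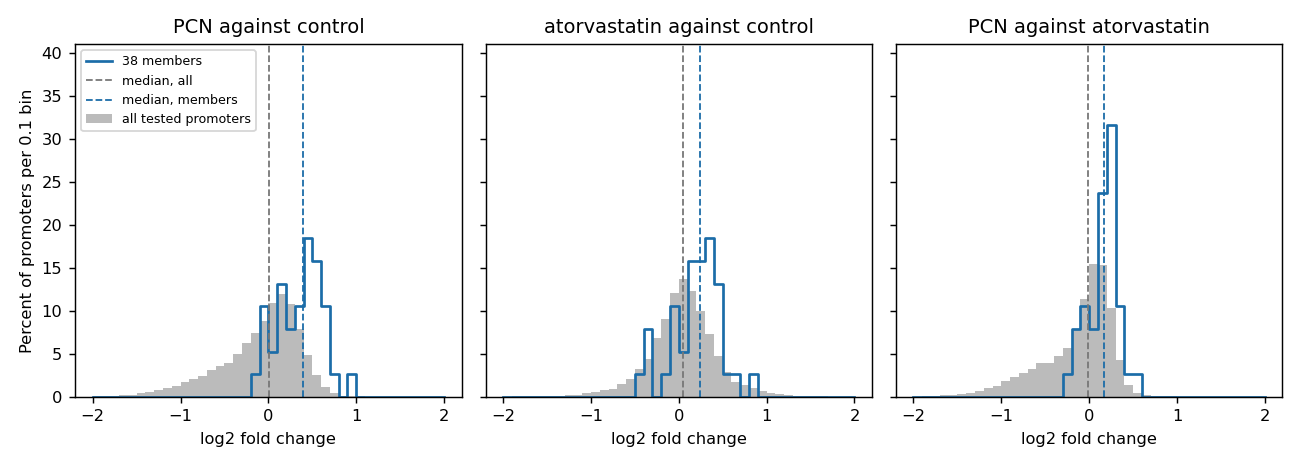
Share of all tested promoters (grey) and of the 38 members (blue) by log2 fold change, from -2 to 2, in the 3 comparisons, with dashed lines at the medians. The members' median lies right of that of all promoters in each panel, at 0.39 against 0.01 for PCN against control.

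The comparison of atorvastatin with control asked the same of a statin. No member passed, the members lay higher on average, and the 4 atorvastatin libraries differed from each other more than with PCN. Cfb again lay highest, followed by Itih4, the acute-phase inter-alpha-trypsin inhibitor chain, and Fga, F5 and F11 lay lowest. Both drugs were compared with the same 4 controls. Of the 38 members, 29 had a log2 fold change above 0 (57.3% of all promoters), with a median of 0.24 against 0.05 for all promoters. The median was 0.22, with 33 above 0, without both low-correlation libraries. The all-library median rested on single libraries: it was 0.08 without control 3, 0.09 without atorvastatin 4 and 0.13 without atorvastatin 2. Promoters in the members' range of mean CPM had a median of 0.06 with 60.7% above 0, and 0.12 with 73.2% above 0 without both libraries.

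By edgeR's quasi-likelihood test (Benjamini-Hochberg adjusted), 0 members passed for atorvastatin against control (0% of all promoters), and limma-voom and DESeq2 called 0 members as well. At an unadjusted p under 0.05 by edgeR, 5 members lay higher, Pros1, Hrg, Itih4, Cfb and C8g (1.06% of all promoters), and 0 lower (0.866%). Without both low-correlation libraries the higher ones numbered 3, Itih4, C4b and Cfb (2.27% of all promoters). The groups did not overlap at 1 member with atorvastatin higher, Pros1 (0.525% of all promoters), and at 0 with atorvastatin lower (0.444%). Pros1 was also the member apart without both libraries (3.82% of all promoters).

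Pros1 held 20.4, 19.5, 14.8 and 11.9 CPM in the controls and 22.2, 23.4, 27.6 and 21.9 with atorvastatin. The lowest treated library was thus just above the highest control, at a log2 fold change of 0.47 ± 0.22 (SE; edgeR unadjusted p = 0.041, adjusted p = 1.00). It was 0.29 without both low-correlation libraries. The PCN libraries, at 20.7, 23.6, 22.4 and 19.0 CPM, overlapped the controls. Hrg held 23.4, 28.3, 30.5 and 28.2 CPM with atorvastatin, of which atorvastatin 1 lay below control 2, at 0.46 ± 0.21. Plg held 42.9, 62.8, 34.0 and 68.8 CPM and lay at -0.02 ± 0.27. Cpb2 held 9.29, 14.1, 11.2 and 16.4 CPM, overlapping the controls.

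Cfb held 42.9, 85.8, 67.0 and 93.9 CPM with atorvastatin. Atorvastatin 1 lay within the controls and the other 3 above them, at 0.83 ± 0.30 (SE; edgeR unadjusted p = 0.0096, adjusted p = 1.00), and 0.71 without both low-correlation libraries. Itih4 held 47.2, 69.0, 39.7 and 102.7 CPM against 35.0, 60.2, 29.1 and 40.8 in the controls. The overlap was wide and atorvastatin 4 decided much of the difference, which was 0.64 ± 0.28 with it and 0.33 without it. C8g, of the terminal complement subunit C8 gamma, was at 0.51 ± 0.25, and 0.33 without both libraries. Kng1 held 21.0, 43.2, 34.4 and 35.1 CPM with atorvastatin and lay at 0.43 ± 0.24, with atorvastatin 1 within the controls. C4bp, at 12.7, 13.7, 6.49 and 17.9 CPM, and Hc, at 11.4, 9.97, 13.5 and 16.7, overlapped the controls.

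In the clotting cascade 3 of 7 genes lay above 0 with atorvastatin, at a median of -0.04, and 4 of 7, at 0.10, without both low-correlation libraries. F5 held 22.0, 25.4, 33.9 and 27.0 CPM in the controls and 18.6, 26.4, 10.7 and 26.3 with atorvastatin, a log2 fold change of -0.38 ± 0.26 (SE). It was -0.01 without control 3, the highest control, and atorvastatin 3, the lowest treated library. F11 held 13.8, 16.8, 8.92 and 23.9 CPM with atorvastatin and lay at -0.32 ± 0.29, and at -0.17 without both. F10 held 59.8, 110.3, 45.2 and 76.2 CPM, overlapping the controls, at 0.10 ± 0.29. Fga held 19.4, 34.8, 13.2 and 33.6 CPM with atorvastatin, the lowest in atorvastatin 3, and lay at -0.47 ± 0.29. Without control 3 and atorvastatin 3 it lay at 0.07. Fgb, at 17.0, 21.5, 15.5 and 34.6 CPM, and Fgg, at 33.3, 45.9, 24.7 and 46.6, lay at 0.39 ± 0.45 and 0.31 ± 0.25. The 7 plasma carriers and inhibitors all lay above 0, between 0.24 for Itih1 and 0.64 for Itih4. Of the complement genes, 4 of 4 of the classical and alternative pathways, 3 of 4 of the lectin pathway and 5 of 6 terminal genes lay above 0.

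The comparison of PCN with atorvastatin showed no member past the test, and small differences. By edgeR's quasi-likelihood test (Benjamini-Hochberg adjusted), 0 members passed (0% of all promoters). At an unadjusted p under 0.05, 0 members lay higher with PCN (0.043% of all promoters) and 0 lower (0.687%), and DESeq2 and limma-voom called 0 members. Of the 38 members, 30 lay above 0 (47.9% of all promoters), at a median of 0.17, against -0.02 for all promoters. Without both low-correlation libraries 26 did, at a median of 0.07. The median was also 0.07 without atorvastatin 3 alone, 0.09 without atorvastatin 1, 0.11 without PCN 2, 0.27 without atorvastatin 2, 0.28 without atorvastatin 4 and 0.11 with loess offsets. All promoters in the members' range of mean CPM had a median of 0.08, with 68.1% above 0. For those promoters the values were -0.006 and 48.2% without both low-correlation libraries.

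F5 had the smallest p on the side of PCN. Its 4 PCN libraries held 23.4, 31.2, 27.2 and 36.3 CPM, overlapping the upper atorvastatin libraries, at a log2 fold change of 0.51 ± 0.25 (SE; edgeR unadjusted p = 0.051, adjusted p = 1.00). It lay at 0.29 without both low-correlation libraries. Fga and C4bp followed, at 0.36 ± 0.28 and 0.40 ± 0.34, and at 0.13 and 0.19 without those libraries. On the side of atorvastatin, Itih4 held 55.6, 60.4, 56.9 and 49.1 CPM with PCN, a narrow set inside the wide range of atorvastatin, at -0.22 ± 0.28. Itih3 held 39.1, 40.8, 31.1 and 50.3 CPM in the controls, 36.5, 51.7, 34.6 and 65.9 with atorvastatin and 35.8, 46.8, 38.8 and 54.7 with PCN. It lay at -0.11 ± 0.24 between the drugs. Without atorvastatin 4, their highest library, Itih3 and Itih4 each lay at 0.09. Pros1 was at -0.15 ± 0.21. The 95% interval for Cfb ran from -0.43 to 0.70 and that for Hrg from -0.18 to 0.60, so neither a difference nor likeness of the drugs is shown at these genes.

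In most libraries the hepatocyte markers lay on the same side of the control mean as the members, with atorvastatin 3 the exception (members at -0.17, markers at 0.11). The 12 markers Alb, Apoa1, Apoa2, Apob, Ttr, Tat, Hnf4a, Cps1, Ass1, Pck1, Tdo2 and Hpd were all measured, with summed CPM of 369 to 714 in the controls, 437 to 850 with atorvastatin and 549 to 778 with PCN. With PCN 10 of the 12 lay above 0, at a median log2 fold change of 0.30, and with atorvastatin 9, at 0.25, and these medians were 0.13 and 0.14 without both low-correlation libraries. Their median deviation from the control mean was lowest in control 3 at -0.42 and highest in atorvastatin 4 at 0.70. Stellate cell and fibroblast markers summed to 68.8 to 95.9, 53.9 to 122 and 48.6 to 79.9 CPM in control, atorvastatin and PCN, and 9 of their 10 promoters lay below 0 with PCN. Kupffer cell markers summed to 61.6 to 116, 54.3 to 125 and 62.9 to 91.7 CPM, with 8 of 10 below 0 with PCN, and endothelial markers to 93.9 to 142, 112 to 174 and 97.2 to 122, with 7 of 10 below. Cholangiocyte markers (6 of 8 below 0 with PCN) summed to 81.7 to 126, 79.0 to 142 and 71.7 to 96.7. Lymphocyte markers (7 of 10 below) summed to 38.3 to 73.8, 27.1 to 107 and 37.8 to 68.3, and neutrophil markers (6 of 8 below) to 47.4 to 71.9, 44.1 to 114 and 47.0 to 62.7. With atorvastatin, 5 stellate, 6 Kupffer cell, 3 endothelial, 3 cholangiocyte, 5 lymphocyte and 4 neutrophil markers lay below 0. Without both low-correlation libraries, the numbers above 0 in these 6 lists were 0, 3, 4, 4, 0 and 2 with atorvastatin. With PCN they were 0, 3, 2, 3, 1 and 2. Of all promoters tested, 51% lay above 0 with PCN, against 70.8% of those in the members' range of mean CPM (11.8 to 76.1). Many markers of the cell types other than hepatocytes lay below that range, for which no share was computed. No marker of any list was at 0 in all libraries. The part of cell composition in the members' values was not tested.

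**Figure D5:**
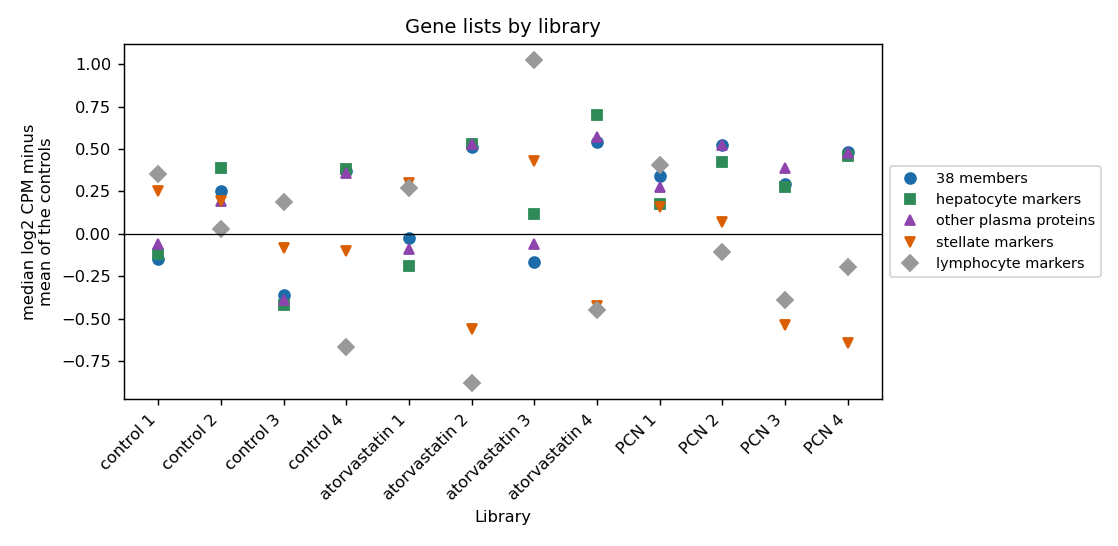
Median log2 CPM minus the control mean (vertical axis) for the members, the hepatocyte, stellate and lymphocyte markers and the other plasma protein genes in each library (horizontal axis). Members and hepatocyte markers are lowest in control 3, at -0.36 and -0.42, and highest in atorvastatin 4, at 0.54 and 0.70.

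Genes of the same pathways outside the member list did not share 1 pattern. Of 25 further coagulation and fibrinolysis genes, 12 lay above 0 with PCN and 13 below, at a median of -0.01, and 13 lay above with atorvastatin, at 0.05. The medians were -0.13 and -0.02 without both low-correlation libraries. Proz and Ggcx, of the vitamin K-dependent protein Z and the carboxylase that modifies vitamin K-dependent factors, lay at 0.40 ± 0.25 and 0.39 ± 0.24 with PCN. Plau, of the plasminogen activator urokinase, lay at -0.74 ± 0.40. Of 27 further complement genes, 12 lay above 0 with PCN, at a median of -0.07, and 16 with atorvastatin, at 0.16, against 0.03 and -0.03 without both libraries. Clu, of the complement inhibitor clusterin, lay at 0.75 ± 0.29, C4a at 0.67 ± 0.29 and C2, encoding the partner of C4, at 0.63 ± 0.26 with PCN. C1s2 lay lowest at -1.33 ± 0.63. Without both libraries Clu, C4a, C2 and C1s2 were at 0.53, 0.42, 0.47 and -0.67. Reads of C4a could have been split with its near-identical copy C4b. Of 21 other plasma protein genes of the liver (Ttr is also a hepatocyte marker above), 18 lay above 0 with PCN, at a median of 0.34, and 17 with atorvastatin, at 0.23. With both low-correlation libraries left out these were 16, at 0.12, and 17, at 0.21. The growth factor gene Igf1 was highest in both, at 0.65 ± 0.25 and 0.48 ± 0.25. None of these genes passed the edgeR test with Benjamini-Hochberg adjustment in either comparison. At an unadjusted p under 0.05 by edgeR, 0 coagulation, 4 complement and 3 other plasma protein genes were found with PCN, and 0, 1 and 0 with atorvastatin. With PCN, Clu, C4a, C2, Apoh, Igf1 and Tfr2 lay higher and C1s2 lower, and with atorvastatin Clu lay higher. Of all promoters, 1.87% were higher and 1.88% lower at that threshold with PCN, and 1.06% and 0.866% with atorvastatin.

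Several members are neighbours on the chromosome, so they are not separate observations of a region. Fgg, Fga and Fgb lie in a row on chromosome 3, with 11097 bp between the bodies of Fgg and Fga and 8619 bp between those of Fga and Fgb. Among the members, Ahsg, Fetub, Hrg and Kng1 come in this order on chromosome 16, with 96561 bp between Hrg and Kng1. Genes outside the list were not placed between them. All 4 lay above 0.5 with PCN: 0.71, 0.53, 0.67 and 0.64. Itih4, Itih3 and Itih1 adjoin on chromosome 14, at 0.42, 0.13 and 0.40. F7 and F10 are 1499 bp apart on chromosome 8, at 0.11 and 0.36, and F11 and Klkb1 4633 bp apart on the same chromosome, at -0.07 and -0.08. C8b and C8a adjoin on chromosome 4, at 0.26 and 0.35. C4b and Cfb lie 112472 bp apart on chromosome 17.

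Enhancer regions near the members lay slightly higher than enhancer regions in general in both comparisons with control, and none passed the test. Of 406518 regions, 804 were assigned to a member as the nearest protein-coding gene within 50 kb. Coordinates of regions are given as deposited (mm10), and the files do not say whether starts count from 0 or 1. The 804 regions lay in 301 separate loci. Of these regions, 555 near 32 genes were tested. No region was assigned to F7, Vtn, Cfb or C8g, and none near F13b or C9 was tested. With PCN, 68.3% of the members' regions lay above 0 against 62% of all tested regions, at medians of 0.26 and 0.17. With atorvastatin the shares were 66.1% and 58.4%, at medians of 0.20 and 0.12, and for PCN against atorvastatin 58.2% and 55.4%, at 0.06 and 0.06. The PCN median moved to 0.15 without control 3, 0.49 without control 2, 0.40 without control 4 and -0.03 with loess offsets, while that of all regions moved to -0.11 with loess offsets. The atorvastatin median moved to 0.08 without control 3, 0.40 without control 2, 0.33 without control 4 and 0.06 with loess offsets. Between the drugs it turned to -0.05 with loess offsets. Over the 552 of these regions that were also tested without both low-correlation libraries, the medians were 0.15, 0.09 and -0.01. Those of all regions in that fit were 0.016, 0.011 and 0.0045. By edgeR's quasi-likelihood test (Benjamini-Hochberg adjusted), 0 regions passed in each comparison (0% of all regions in all 3). At an unadjusted p under 0.05, 13 of 555 (1.93% of all regions), 13 of 555 (2.39%) and 6 of 555 (0.465%) were found for PCN against control, atorvastatin against control and PCN against atorvastatin, and DESeq2 size factors and limma-voom gave 0 past the adjusted threshold.

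The regions of C4b lay higher with both drugs, though here too reads could have been split with its near-identical copy C4a. Their medians were not computed without control 3. In this gene 12 of 13 tested regions were above 0 with PCN, at a median of 1.11, and 13 of 13 with atorvastatin, at 1.17, in at most 6 separate loci. One of them, at chr17:34728084-34728202 at the edge of the gene body, held 7.86, 8.79, 0.540 and 8.08 CPM in the controls and 9.96, 22.6, 11.6 and 13.4 with PCN. All PCN libraries were above all controls, at a log2 fold change of 1.20 ± 0.50 (SE; edgeR unadjusted p = 0.025, adjusted p = 1.00). It lay at 0.86 without control 3 and atorvastatin 3. An overlapping region, chr17:34728058-34728204, held 9.02, 9.77, 0.540 and 9.98 CPM in the controls and 11.6, 15.9, 25.7 and 21.7 with atorvastatin, again apart, at 1.37 ± 0.49, and 0.88 without those libraries. In Hc, chr2:35063848-35063954 held 2.32, 1.79, 0 and 0 CPM in the controls and 4.03, 4.27, 5.34 and 7.70 with PCN, from 15 to 28.5 counts per PCN library. The groups were apart, at 2.02 ± 0.81, and 1.58 without those libraries. The zeros of controls 3 and 4 allow up to 1.62 and 2.85 CPM by counting error.

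Other regions with small p were near Itih2, Masp1 and Plg. Near Itih2, chr2:10134093-10134275 held 4.90, 2.44, 2.97 and 1.43 CPM in the controls and 5.45, 5.13, 19.6 and 9.74 with atorvastatin, at 1.58 ± 0.54, and 1.02 without the low-correlation libraries. The groups did not overlap, with 11 to 78.5 counts per atorvastatin library (edgeR unadjusted p = 0.0079, adjusted p = 1.00). The lower values lay in Masp1 and Plg. The Masp1 region chr16:23458083-23458265 held 3.22, 1.79, 9.18 and 3.33 CPM in the controls and 0.106, 0.569, 1.03 and 0.896 with PCN, at -2.81 ± 1.14, with at most 5.5 counts in any PCN library and no overlap. It was not tested without the low-correlation libraries. The Plg region chr17:12408518-12408664 held 2.19, 3.09, 9.72 and 9.50 CPM in the controls, 0.636, 1.42, 3.09 and 1.25 with PCN and 0.990, 0.832, 1.75 and 2.78 with atorvastatin, at -1.82 ± 0.77 and -1.84 ± 0.77. A further Plg region, chr17:12418110-12418302, lay at -2.12 ± 0.94 with atorvastatin and at -0.97 without both low-correlation libraries. Control 3 was the highest control library in all 3 of these regions, and in the Masp1 region atorvastatin 3 held 9.37 CPM.

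Between the drugs, the region with the smallest p lay in Itih3, chr14:30914421-30914603. It held 2.72, 0.416, 17.6 and 2.23 CPM with atorvastatin and 0.636, 0.285, 0.375 and 0.896 with PCN, so that atorvastatin 3 alone stood high, at -3.45 ± 1.06 (SE; edgeR unadjusted p = 0.0038, adjusted p = 1.00), and -1.65 without it and control 3. The Itih4 region chr14:30888517-30888709 held 25.5 CPM in atorvastatin 3 against 4.95 to 8.42 in the other atorvastatin libraries, at -1.28 ± 0.55, and -0.56 without those libraries. On the side of PCN were a Pros1 region, chr16:62940704-62940832, at 1.54 ± 0.91, and a Klkb1 region, chr8:45265093-45265177, at 0.84 ± 0.61. The Klkb1 region held 6.99, 7.26, 10.4 and 10.0 CPM with PCN and 4.46, 6.42, 1.87 and 6.19 with atorvastatin, with no overlap. The width of a deposited region marks a class of regions whose counts are highest in 1 particular library. The Masp1, Itih2 and Itih3 regions have the width that is linked to atorvastatin 3, and the further Plg region and the Itih4 region that of control 3. The first Plg region and the C4b region compared with atorvastatin have that of control 4, and the Pros1, Hc and Klkb1 regions and the C4b region compared with PCN those of PCN 1, PCN 2, PCN 3 and PCN 4. The part of this in their values was not tested.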

How the data were processed

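The authors deposited tables of expected counts per promoter and per enhancer region, unnormalised and in steps of 0.5 (unit read from the values), for 12 libraries. Per the submitters' processing notes the build was mm10 and the tools included Trimmomatic, STAR 2.7.9a, bedtools 2.30.0 and HOMER 4.10, with roles, window lengths and filters not given in the sources used here. Counts were rounded and fitted by the quasi-likelihood test of edgeR 4.0.16 (R 4.3.3), after TMM normalization and filterByExpr (min.count 10, min.total.count 15), with the 3 groups as the design over all 12 libraries. Benjamini-Hochberg adjustment covered all 41908 promoters or 182115 enhancer regions tested, with a threshold of 0.05. SE was taken from the log2 fold change and its F statistic (|log2 fold change| divided by √F), so it and the normal 95% intervals are approximate. A prior count of 2 entered log2 CPM. The fit was tested on simulated data. The members and lists were chosen with earlier results of these data known. One of the 22 other plasma protein genes had no promoter row and is not analysed here. Values by library, not always for all 3 groups, are given for the 3 members of smallest p per direction and comparison and the 3 highest and 3 lowest in control. They are also given for members whose groups were apart, the fibrinogen genes and Ahsg, chosen after its values were seen. The enhancer regions named are the 2 of smallest p per direction and comparison, most of them with values by library. A region went to the nearest protein-coding gene body within 50 kb. Alternatives were DESeq2 1.42.0 and its size factors, limma-voom 3.58.1, library totals, loess offsets, other filters and thresholds, unrounded counts, fits of 2 groups, every promoter row, a distance of 20 kb, the replicate block and leaving out each library.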

Additional observations from a re-analysis of the deposited data

Results flagged for a closer look

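In 114 sets of 4 libraries (38 members in 3 groups), 7 held a library whose gap to the nearest of the others, relative to the range, was above Dixon's 95% critical value, which chance exceeds in about 1 of 20 sets. Control 3 gave 4 of them. It was low at Fgb (0.0 CPM, others 16.5 to 30.8), Cfi (0.7975, others 25.1 to 30.9) and C4bp (3.987, others 13.6 to 14.5), and high at Klkb1 (22.33, others 15.8 to 16.3). The other 3 were in PCN: PCN 1 was low at F13b, with 10.93 CPM against 14.5 to 15.3, and at Cpb2, with 13.66 against 15.5 to 15.6, and PCN 2 was high at Kng1, with 49.8 against 35.2 to 35.9.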

How the results depend on the processing

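The number of members past the adjusted threshold was 0 in every comparison and table under all alternatives but one. Without both low-correlation libraries and with the replicate number as a block, 4 member promoters passed for PCN (Ahsg, Cfb, Fetub and Kng1, among 124 of all promoters) and 1 for atorvastatin (Cfb, among 57 of all). There Cfb was at 0.87 and Kng1 at 0.68 with PCN, and Cfb at 0.64 with atorvastatin. Whether the numbers pair the samples was not settled. Same-numbered libraries correlated at -0.42 to 0.50 in their deviations from the group means. Libraries 1 and 4 of each drug correlated best with the same-numbered control, and libraries 2 and 3 did not. Between the drugs, PCN 2 and PCN 4 correlated best with their own number, and PCN 1 and PCN 3 did not. With all 12 libraries the block called 0 members and gave member medians of 0.41, 0.20 and 0.22 for PCN, atorvastatin and PCN against atorvastatin. Leaving out 1 library at a time, the promoter medians ranged from 0.26 to 0.52, 0.08 to 0.36 and 0.07 to 0.28, and the enhancer medians from 0.15 to 0.49, 0.08 to 0.40 and 0.02 to 0.16. No member was called in any of these fits (0 to 0).

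Of the genes followed under every alternative, the following changed sign, and the cause was not tested. For PCN, Fga was at 0.20 without both low-correlation libraries, 0.11 with loess offsets added, 0.24 with the block added, 0.079 by limma-voom and -0.31 to 0.16 leaving out 1 library. Klkb1 was at 0.048, 0.10 and 0.017 under the former 3 settings and -0.17 to 0.044 leaving out 1 library, and F11 at -0.19 to 0.13 leaving out 1 library. For atorvastatin, Fga was at 0.068 without both and 0.027 with the block added. Between the drugs, Itih4 ranged from -0.40 to 0.092 and Itih3 from -0.23 to 0.095. Among all members, those left out above that also changed sign without both low-correlation libraries were Masp1 (to 0.03) and Mbl1 (to -0.08) for PCN, F7 (to 0.10), Plg (to 0.14) and Masp1 (to 0.16) for atorvastatin, and F2, Fgb, Proc and C4b (to -0.04, -0.05, -0.07 and -0.10) between the drugs. Scaling by library totals moved the median of all promoters with PCN to -0.10 and of the members to 0.29.

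With 4 libraries a group, the median SE of a member's log2 fold change was 0.29 for PCN and 0.29 for atorvastatin. The smallest library held 1679054 promoter counts and 1256648.5 enhancer counts, which limits single enhancer regions most.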
